A study of Homo sapiens with 6 samples.

Results

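The aminoacyl-tRNA synthetases, the enzymes that load amino acids onto transfer RNAs, and the scaffold proteins that hold several of them together were followed in MG63 cells after the knockdown of FUBP1. They comprised 39 protein-coding genes among the 58735 genes of the count table. The genes were chosen by symbol and not by a threshold on a measured value. The choice was made with earlier results of these data known. Of the 39, 20 encode cytosolic enzymes, 16 encode mitochondrial enzymes with names ending in 2, and 3 encode scaffold proteins (AIMP1, AIMP2 and EEF1E1). GARS and KARS were counted as cytosolic, although each also supplies the mitochondrial enzyme from the same gene. The list does not hold every mitochondrial synthetase.

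Each synthetase recognises an amino acid and the transfer RNAs that belong to it, and the charged transfer RNAs then feed the ribosome. The cytosol and the mitochondrion run separate translation systems, and for most amino acids each system has its own enzyme from its own nuclear gene. Many genes of the cytosolic set are known targets of ATF4, the transcription factor of the integrated stress response, which binds with C/EBP partners to short DNA elements near their start sites.

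MG63, an established human osteosarcoma line, was the only cell line in the series. The siFUBP1 group (3 samples) had received siRNA directed at FUBP1, a nuclear protein that binds single-stranded DNA, and the siMock group (3 samples) a negative control. RNA was collected 48 h after transfection for poly(A)-selected RNA-seq. The knockdown was transient, and which of the designed FUBP1 siRNAs was used for sequencing is not given in the sources used here. The labels do not say whether the 3 samples of a group came from separate cultures, so the p-values measure only the spread between these samples. Total counts ranged from 16309900 to 17484313 per sample. FUBP1 itself had 237, 255 and 274 CPM (read counts per library size, the library sizes scaled by TMM, the trimmed mean of M values) in the siMock samples and 44.4, 43.4 and 53.0 in the siFUBP1 samples, a log2 fold change of -2.44 (SE 0.0895, adjusted p = 1.90e-17 by edgeR).

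The markers of the labelled cell type were only partly present. Of 8 osteoblast and mesenchymal markers, VIM, COL1A1 and FN1 had 769 reads or more in every sample and RUNX2 6 to 97 reads. COL1A2, by contrast, was at 0 in every sample, CDH11 and ALPL had at most 1 read and SPARC at most 5. The 4 markers that could be tested differed between the groups: RUNX2 was called higher (8, 8 and 6 reads in siMock and 73, 97 and 39 in siFUBP1, log2 fold change 3.15), COL1A1 was called lower (-1.31), FN1 was lower (-0.79) and VIM higher (0.38) at the adjusted p. Their part in the results on the synthetases was not tested. Of 8 markers of other cell types, KRT5 and ALB were at 0 in every sample, PTPRC, CD68, PECAM1 and HBB had at most 11 reads, CDH1 8 to 22 and EPCAM 59 to 83. The summed level of these 8 was 5.06 to 6.50 CPM in siMock and 4.73 to 6.22 CPM in siFUBP1.

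Most cytosolic enzymes rose after FUBP1 knockdown, whereas the mitochondrial enzymes moved in both directions. Among the 20 cytosolic genes, 8 were called higher (adjusted p below 0.05 and a log2 fold change above 1 in edgeR's quasi-likelihood test) and 0 lower, where 8.16% of the 16116 tested genes were called higher and 9.13% lower. At the adjusted p alone, 18 of the 20 were higher and 0 lower, beside 30.1% of all tested genes higher and 30.1% lower. Among the 16 mitochondrial genes, 0 were called higher and 2 lower, and at the adjusted p alone 4 were higher and 7 lower. The 3 scaffold genes were all higher at the adjusted p alone and none was called. All 39 genes passed the filter on low counts. The median log2 fold change was 0.89 over the cytosolic, -0.14 over the mitochondrial and 0.44 over the scaffold genes, beside 0.0020 over all tested genes. The mitochondrial median was -0.21 without siFUBP1 replicate 3, -0.09 without siFUBP1 replicate 2 and -0.04 with library size alone as the scaling. In bulk RNA, a change in RNA per cell and a change in the share of cells that carry it cannot be told apart.

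**Figure D1:**
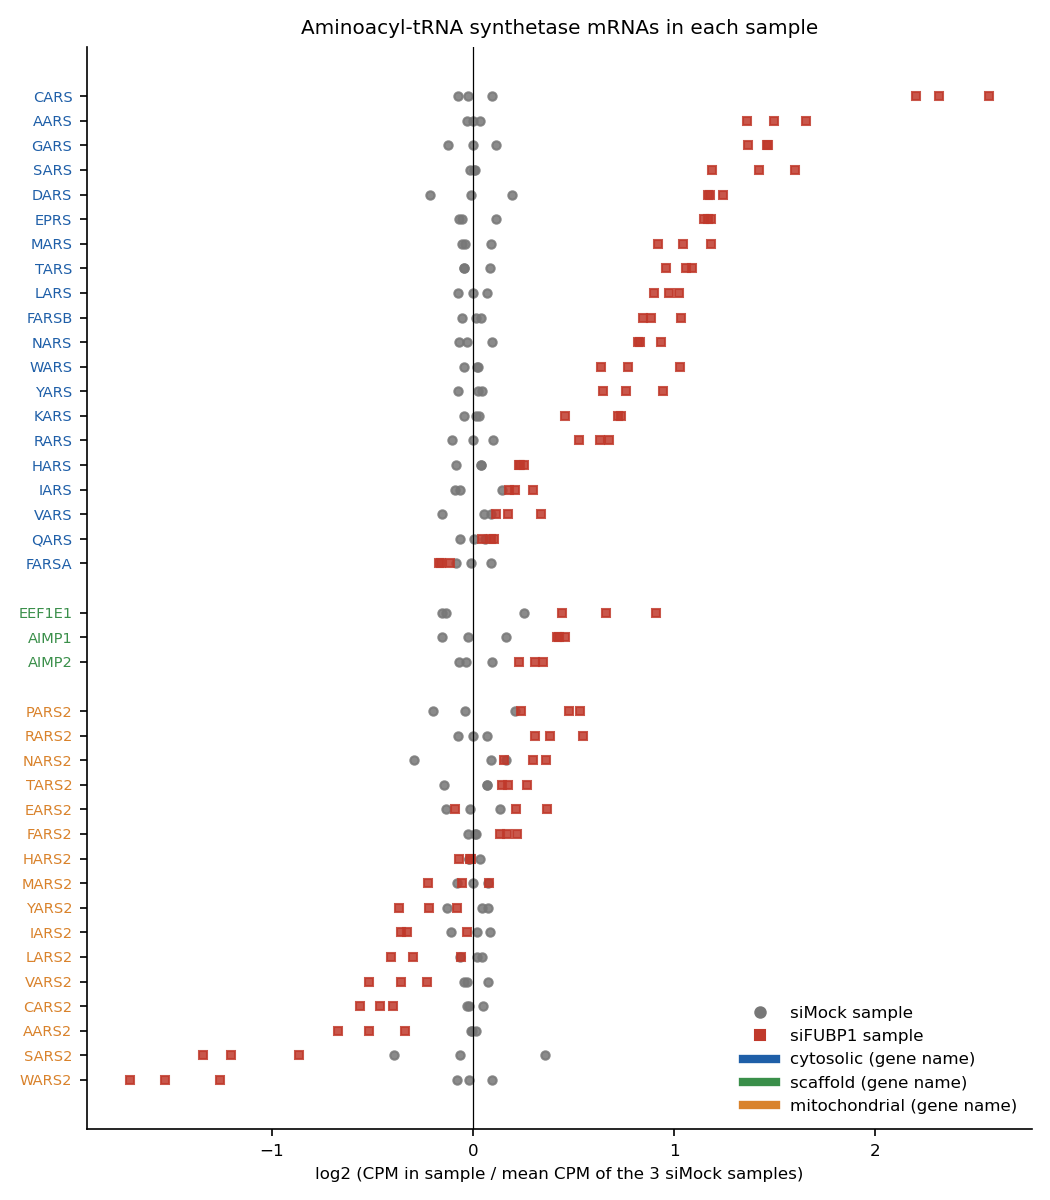
Each row is a gene and each point a sample, placed on the x axis at the log2 of its CPM over the mean CPM of the 3 siMock samples; grey circles are siMock, red squares siFUBP1, and gene names are blue for cytosolic, green for scaffold and orange for mitochondrial proteins. The siFUBP1 points of 18 cytosolic genes lie to the right of all their siMock points, while those of the mitochondrial genes lie on both sides of 0.

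Separation of the samples gave a similar picture. In 18 of the 20 cytosolic genes every siFUBP1 sample lay above every siMock sample, in 1 (FARSA) below, and in 1 (QARS) the groups overlapped. Over all tested genes, 32.2% were apart with siFUBP1 above and 31.7% with siFUBP1 below. Of the 16 mitochondrial genes, 4 were apart above, 5 apart below and 7 overlapped. These were not all the genes that passed the adjusted p. FARS2 was apart above and did not pass, while NARS2, LARS2 and IARS2 passed with overlapping groups.

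CARS (ENSG00000110619, chr11:3000922-3057613 on GRCh38), the cysteinyl-tRNA synthetase, changed most of the 39. It had 79.1, 70.3 and 72.8 CPM in siMock and 369.5, 439 and 341 CPM in siFUBP1. The lowest siFUBP1 sample was thus far above the highest siMock sample. The means were 74.1 ± 4.53 CPM (SD, n = 3) and 383 ± 50.3 CPM (SD, n = 3), a 5.17-fold rise (log2 fold change 2.37, SE 0.0920, adjusted p = 4.35e-17 by edgeR). Per kilobase of exon, CARS moved from rank 30 to rank 12 among the 39 genes.

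AARS (ENSG00000090861, chr16:70252295-70289543), which charges alanine, went from 246, 240.1 and 235 CPM in siMock to 678, 759 and 618 CPM in siFUBP1, with no overlap (log2 fold change 1.51, SE 0.0842, adjusted p = 4.04e-14). GARS (ENSG00000106105, chr7:30594681-30634033), the glycyl-tRNA synthetase of both compartments, had 202, 171 and 186 CPM in siMock and 481, 515 and 513 CPM in siFUBP1 (log2 fold change 1.43, SE 0.0810, adjusted p = 5.44e-14). All of its siFUBP1 samples were far above the highest siMock sample. SARS (ENSG00000031698, chr1:109213918-109238169), the seryl-tRNA synthetase, had 154, 153 and 151 CPM in siMock and 409.5, 464 and 348 CPM in siFUBP1. The siMock samples were almost level and the siFUBP1 samples were spread, but the groups were apart (log2 fold change 1.41, SE 0.0890, adjusted p = 4.62e-13).

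Called higher as well were DARS, EPRS, MARS and TARS. DARS (ENSG00000115866, chr2:135906677-135986100), which charges aspartate, rose from 38.3, 33.2 and 44.1 CPM in siMock to 86.6, 87.2 and 91.1 CPM in siFUBP1 (log2 fold change 1.20, SE 0.0929, adjusted p = 2.71e-11). EPRS (ENSG00000136628, chr1:219968601-220046658), a fused enzyme that charges glutamate and proline, rose from 205.5, 208 and 233 CPM to 477, 490.0 and 484.5 CPM (log2 fold change 1.17, SE 0.0784, adjusted p = 1.68e-12). Its siFUBP1 samples were the most uniform of the called genes relative to their mean. MARS (ENSG00000166986, chr12:57475445-57517569), the methionyl-tRNA synthetase, had 105, 96.15 and 95.3 CPM in siMock and 204, 224.5 and 187.5 CPM in siFUBP1 (log2 fold change 1.05, SE 0.0816, adjusted p = 2.67e-11). TARS (ENSG00000113407, chr5:33440696-33469539), the threonyl-tRNA synthetase, had 612, 613 and 671 CPM in siMock and 1317, 1345 and 1228 CPM in siFUBP1 (log2 fold change 1.04, SE 0.0817, adjusted p = 3.62e-11). In all of these genes the groups were apart. Calls at this end rested on the fold threshold: MARS was at 0.99 without siFUBP1 replicate 2, and DARS and TARS were at 0.996 and 0.97 once a trend on GC content and transcript length was removed, with the adjusted p still passed.

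The 10 further cytosolic genes that passed the adjusted p ran down to small changes. LARS (leucine), at a log2 fold change of 0.97, FARSB (the beta subunit of the phenylalanine enzyme), at 0.92, NARS (asparagine), at 0.86, WARS (tryptophan), at 0.82, and YARS (tyrosine), at 0.79, lay just under the fold threshold. LARS reached 1.00 and was called without siFUBP1 replicate 3. KARS, the lysine enzyme of both compartments, had 126, 132 and 133 CPM in siMock and 215, 179 and 217 CPM in siFUBP1 (log2 fold change 0.64, SE 0.0814, adjusted p = 1.71e-07). All of its siFUBP1 samples were above siMock, with replicate 2 the lowest. RARS (arginine) was at 0.61, and at 0.41 with the trend on GC content and length removed.

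HARS (histidine), IARS (isoleucine) and VARS (valine) rose least, at log2 fold changes of 0.24, 0.23 and 0.21. IARS did not pass once siMock replicate 1 (adjusted p = 0.0759), siMock replicate 2 (0.0795) or siFUBP1 replicate 1 (0.0612) was left out. VARS no longer passed without siMock replicate 3 (0.179) or siFUBP1 replicate 2 (0.147), nor in limma on log2(FPKM + 1) (0.0646) or log2(FPKM + 0.1) (0.0632), yet it was at 0.54 with the trend on GC content and length removed. QARS (glutamine), at 0.08 (adjusted p = 0.371), and FARSA, at -0.15 (adjusted p = 0.0992), did not pass. QARS passed as higher with library size alone as the scaling, at 0.18 (adjusted p = 0.0402), and with the trend on GC content and length removed, at 0.13 (adjusted p = 0.0483). FARSA passed as lower without siMock replicate 3, at -0.19 (adjusted p = 0.0423), whereas with the trend on GC content and length removed it was at 0.0084 (adjusted p = 0.913). FARSA and FARSB encode the alpha and beta subunits of the same cytosolic phenylalanyl-tRNA synthetase, and their log2 fold changes were -0.15 and 0.92.

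Genes that rose were found both inside and outside the multisynthetase complex. Of the 8 cytosolic genes whose products sit in the complex, 3 were called and 7 passed as higher, with a median log2 fold change of 0.81. Of the 12 outside it, 5 were called and 11 passed, with a median of 0.89. By catalytic fold, 2 of the 9 class I and 5 of the 10 class II enzymes were called, with medians of 0.79 and 0.98, and EPRS, which joins both classes, was left out of that count. Over all tested genes, 8.16% were called higher and 30.1% passed as higher. These are descriptions, and no difference between the subgroups was tested.

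The scaffold genes rose, with log2 fold changes under the median of 0.81 of the enzymes they hold. EEF1E1, also called AIMP3, had 7.78, 7.885 and 10.3 CPM in siMock and 16.3, 11.8 and 13.7 CPM in siFUBP1 (log2 fold change 0.69, SE 0.149, adjusted p = 2.90e-04). AIMP1 had 48.65, 44.5 and 55.5 CPM in siMock and 68.1, 66.25 and 66.6 CPM in siFUBP1 (log2 fold change 0.44, SE 0.0882, adjusted p = 1.31e-04). AIMP2 had 38.85, 34.7 and 35.5 CPM in siMock and 42.5, 44.9 and 46.2 CPM in siFUBP1 (log2 fold change 0.29, SE 0.0890, adjusted p = 0.00591). In each of the 3 the lowest siFUBP1 sample was above the highest siMock sample. With the trend on GC content and length removed the changes were smaller, at 0.39 for EEF1E1, 0.20 for AIMP1 and 0.19 for AIMP2, and all 3 still passed. Of the exonic bases of AIMP2, 28.9% are shared with EIF2AK1 on the opposite strand, which had a log2 fold change of 0.31, and the share of that gene in the reads was not tested.

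The mitochondrial enzymes moved in both directions, as the tested genes as a whole did. Of the 16, 2 were called lower and 0 higher, beside 9.13% lower and 8.16% higher over all tested genes. WARS2 (ENSG00000116874, chr1:119031216-119140671), the mitochondrial tryptophanyl-tRNA synthetase, had 30.3, 29.01 and 32.7 CPM in siMock and 10.6, 9.40 and 12.8 CPM in siFUBP1. No siFUBP1 sample came near the siMock range, and 163 to 224 reads per siFUBP1 sample stood against 493 to 511 per siMock sample. The level fell to 0.357 of siMock (log2 fold change -1.49, SE 0.117, adjusted p = 3.78e-11), and the log2 fold change lay between -1.66 and -1.22 under every alternative tried. SARS2 (ENSG00000104835, chr19:38915266-38930896), the mitochondrial seryl-tRNA synthetase, was the least counted of the 39, with 64, 53 and 82 reads in siMock and 38, 28 and 31 reads in siFUBP1. The groups were apart (log2 fold change -1.12, SE 0.253, adjusted p = 4.42e-04), but without siMock replicate 3, the highest sample, it was at -0.91 and was no longer called. With the trend on GC content and length removed it was at -0.95, and with limma on log2(FPKM + 1) at -0.51. SARS2 shares 46.2% of its exonic bases with AC011455.2 on the same strand, which had 0 to 2 reads, and 10.8% with MRPS12 on the opposite strand.

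AARS2 and CARS2, the mitochondrial alanine and cysteine enzymes, were also lower at the adjusted p alone. AARS2 had 28.3, 28.7 and 28.2 CPM in siMock and 22.4, 19.8 and 17.8 CPM in siFUBP1 (log2 fold change -0.50, SE 0.103, adjusted p = 1.48e-04). CARS2 had 252, 240.1 and 238.5 CPM in siMock and 177, 165 and 185 CPM in siFUBP1 (log2 fold change -0.47, SE 0.0758, adjusted p = 6.43e-06). In both genes every siFUBP1 sample was below every siMock sample, and AARS2 was at -0.27 with the trend on GC content and length removed. VARS2 (-0.36), LARS2 (-0.25) and IARS2 (-0.23) passed as lower too, although the groups overlapped in LARS2 and IARS2. For VARS2 the change was -0.07 (adjusted p = 0.461) with the trend on GC content and length removed, and 21.99% of its exonic bases lie in GTF2H4 on the same strand, listed at 2 to 10 reads. LARS2 no longer passed when siMock replicate 2 (adjusted p = 0.0886), siFUBP1 replicate 1 (0.108) or siFUBP1 replicate 2 (0.164) was left out, nor in DESeq2 (0.0566), limma on log2(FPKM + 1) (0.0619) or with library size alone (0.16). IARS2 did not pass when siMock replicate 3 (0.0808), siFUBP1 replicate 1 (0.177) or siFUBP1 replicate 2 (0.111) was left out, nor in limma on log2(FPKM + 1) (0.0754) or with library size alone (0.173).

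Higher at the adjusted p alone were RARS2 (0.42), PARS2 (0.42), NARS2 (0.27) and TARS2 (0.20). RARS2, the mitochondrial arginine enzyme, had 24.6, 23.4 and 25.9 CPM in siMock and 36.0, 30.5 and 32.1 CPM in siFUBP1 (adjusted p = 6.53e-04). PARS2, the mitochondrial proline enzyme, had 7.905, 6.65 and 5.96 CPM in siMock and 9.89, 9.51 and 8.08 CPM in siFUBP1, and TARS2 had 67.4, 67.4 and 58.1 CPM in siMock and 77.6, 72.65 and 71.0 CPM in siFUBP1. In PARS2 and TARS2 the groups were apart by a narrow margin, and in RARS2 by a wider one. In NARS2 they overlapped. The count of 4 fell to 1 without siMock replicate 2 and to 2 when siMock replicate 3 or either of siFUBP1 replicates 1 and 2 was left out. Without siFUBP1 replicate 3 it was 3, and only RARS2 passed in DESeq2. RARS2 in turn did not pass with the trend on GC content and length removed, at 0.19 (adjusted p = 0.0604).

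The remaining 5 mitochondrial genes did not pass: YARS2 at -0.22, MARS2 at -0.06, HARS2 at -0.03, FARS2 at 0.17 and EARS2 at 0.18. MARS2, whose cytosolic counterpart was called higher, had 12.1, 10.8 and 11.5 CPM in siMock and 11.0, 9.80 and 12.1 CPM in siFUBP1 (adjusted p = 0.708). EARS2, the mitochondrial glutamate enzyme, had 26.6, 28.8 and 32.0 CPM in siMock and 33.8, 27.4 and 37.6 CPM in siFUBP1 (adjusted p = 0.166). The groups overlapped in both. YARS2 passed as lower without siMock replicate 3 (-0.28, adjusted p = 0.0271) or siFUBP1 replicate 3 (-0.29, adjusted p = 0.0287), and with the trend on GC content and length removed (-0.30, adjusted p = 0.00692). EARS2 passed as higher without siFUBP1 replicate 2 (0.30, adjusted p = 0.0202) and with library size alone (0.27, adjusted p = 0.0298). With library size alone HARS2 (0.07) and MARS2 (0.03) were above 0, MARS2 was at 0.02 without siFUBP1 replicate 2, and HARS2 at 1.55e-04 without siFUBP1 replicate 1.

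**Figure D2:**
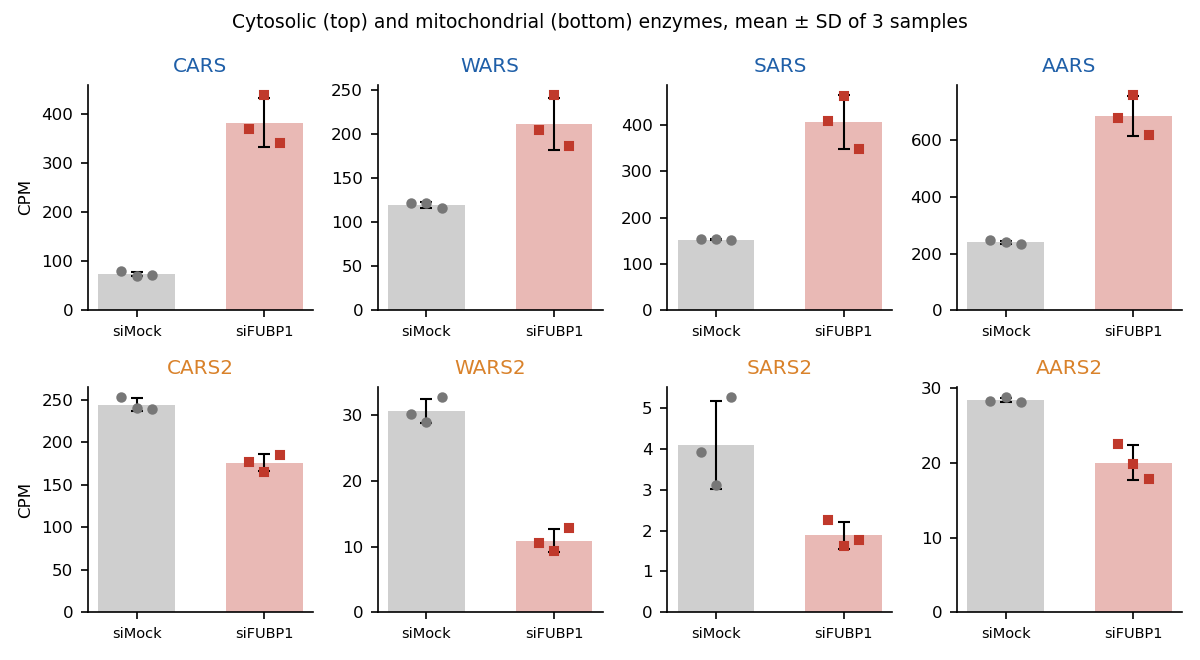
CPM of CARS, WARS, SARS and AARS in the top row and of their mitochondrial counterparts in the bottom row, each panel with its own y axis from 0; bars are the mean and whiskers the SD of 3 samples, and points are the samples. Every siFUBP1 point lies above the siMock points in the top row, for example 341 CPM or more for CARS, and below them in the bottom row, for example 12.8 CPM or less for WARS2.

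The question of whether the enzymes of the cytosol and of the mitochondrion changed alike was addressed for amino acids with a separate gene for each on the list. DARS, QARS, GARS and KARS had no such partner and entered no pair. For 17 pairs of genes the log2 ratio of the cytosolic to the mitochondrial level, each per kilobase of exon, was taken within each sample, so that the scaling of the library drops out. EPRS and FARS2 each enter 2 pairs. In 16 pairs the ratio in every siFUBP1 sample was above that in every siMock sample, and in 1, FARSA over FARS2, it was below (difference -0.32). The share of other pairs of genes that separate in this way was not computed. Of single tested genes, 32.2% were apart with siFUBP1 above and 31.7% with siFUBP1 below, so separation was common. An exact permutation test of 3 samples against 3, two-sided, gave p = 0.1 in each of the 17 pairs, the smallest it can give, and 0.1 after Benjamini-Hochberg adjustment, so that no single pair could reach 0.05. The median difference over the pairs was 0.84 on the log2 scale.

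The largest shift was that of cysteine. In the siMock samples the log2 ratio of CARS over CARS2 was -1.61, -1.71 and -1.65, and in the siFUBP1 samples 1.12, 1.47 and 0.94, so the enzyme with the higher level per kilobase was CARS2 in the former and CARS in the latter. The ratio went from 0.317 to 2.26 (difference 2.84). Serine (SARS over SARS2) followed with a difference of 2.51, tryptophan (WARS over WARS2) with 2.31 and alanine (AARS over AARS2) with 2.02. In these 4 pairs the cytosolic gene was higher and the mitochondrial gene lower at the adjusted p, as was also so for valine, leucine and isoleucine.

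The smallest difference among the 16 pairs was that of arginine. RARS over RARS2 changed by 0.20, from a ratio of 5.61 to 6.44, and both genes were higher at the adjusted p. HARS and HARS2 lie head to head on chromosome 5 with starts 436 bases apart and share 437 exonic bases on opposite strands. Their ratio went from 0.868 to 1.05 (difference 0.27), with HARS below HARS2 per kilobase in every siMock sample and above it in every siFUBP1 sample. This order depends on the length used, that of all annotated exons (7853 bases for HARS and 3736 for HARS2). In CPM, HARS was above HARS2 in both groups, at 72.7 against 39.8 in siMock and 85.7 against 39.0 in siFUBP1. For isoleucine the mitochondrial gene stayed the higher of the pair, with IARS over IARS2 at 0.386 in siMock and 0.534 in siFUBP1. Per kilobase, the cytosolic gene was thus above its partner in all samples in 14 of 17 pairs in siMock and in 16 of 17 in siFUBP1.

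**Figure D3:**
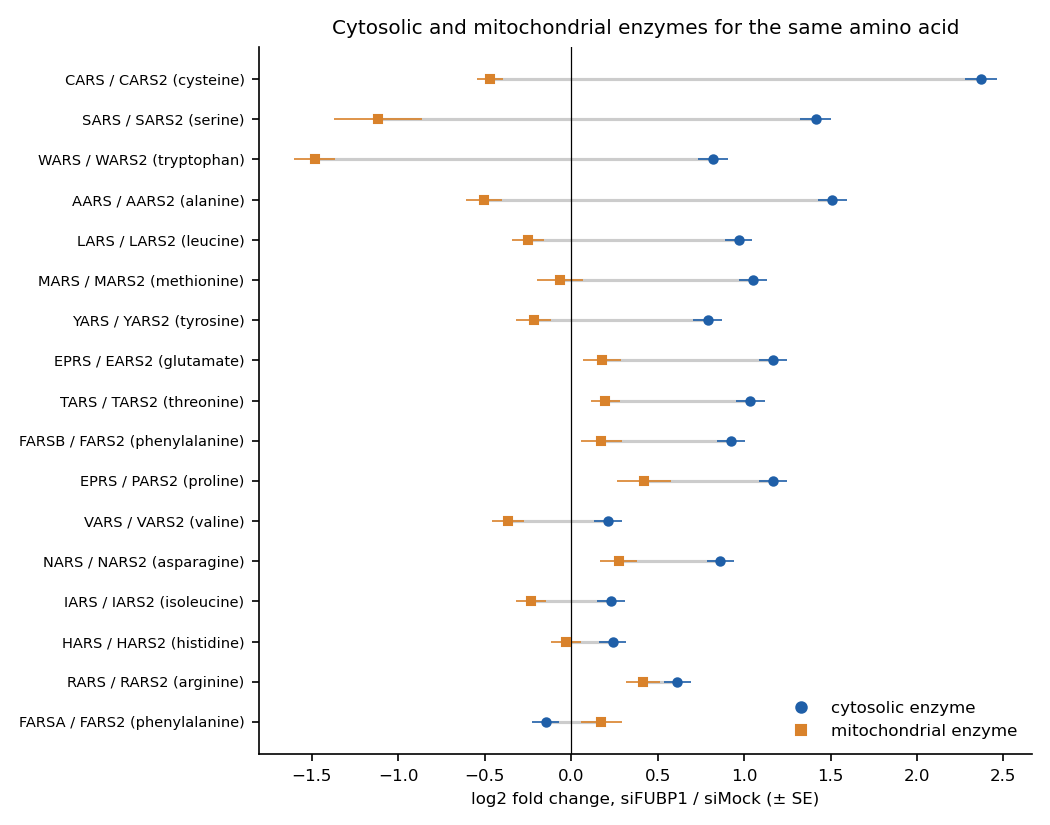
For each of the 17 pairs, named with its amino acid on the y axis, the log2 fold change (siFUBP1 over siMock, x axis) of the cytosolic enzyme is a blue circle and that of the mitochondrial enzyme an orange square, each with its SE from edgeR and joined by a grey line. The circle lies to the right of the square in 16 pairs, with the widest gap for CARS and CARS2 (2.37 and -0.47), and to the left for FARSA and FARS2.

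Summed over the genes, the cytosolic level was 664 ± 9.16 CPM per kilobase (SD, n = 3) in siMock and 1271 ± 55.3 (SD, n = 3) in siFUBP1, a 1.91-fold difference. The samples were at 663, 655 and 673 in siMock and at 1271, 1326 and 1215 in siFUBP1. The mitochondrial sum was 183, 174 and 182 CPM per kilobase in siMock and 160.0, 154 and 171.5 in siFUBP1. With TMM scaling all 3 siFUBP1 samples were thus below siMock, at 0.902 of its mean. The ratio of the 2 sums went from 3.70 ± 0.0675 (SD, n = 3) to 7.87 ± 0.754 (SD, n = 3). The separation of the mitochondrial sums rested on the TMM scaling. With library size alone the mitochondrial median log2 fold change was -0.04. IARS2 and CARS2, the highest mitochondrial genes in siMock, went from 54.0 to 46.0 and from 23.3 to 16.8 CPM per kilobase, with overlapping groups in IARS2. Of the 16 mitochondrial genes, 4 were higher and 7 lower at the adjusted p.

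In level per kilobase of exon, TARS was the highest of the 39 in both groups, at 111 CPM per kilobase in siMock and 227 in siFUBP1, and SARS2 the lowest, at 1.27 and 0.582. The cytosolic levels in siMock ran from 7.38 (CARS) to 111 with a median of 32.4, and the mitochondrial levels from 1.27 to 54.0 (IARS2) with a median of 7.64. IARS2 ranked 3 among the 39 in siMock and 10 in siFUBP1. AARS rose from rank 4 to rank 2, GARS from rank 6 to rank 3 and SARS from rank 8 to rank 4.

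The promoter windows of the members were searched for TGATGNAA, the core of the element that ATF4 and C/EBP proteins are known to bind, on both strands (TTNCATCA when read from the other strand). The windows are those of RefSeq on GRCh38.p14 and run from 250 bases before to 50 bases after each start. A window was at hand for 33 of the 39 members, and those without were VARS, LARS, YARS, DARS, VARS2 and AARS2. The motif was found in 8 of the 33 (24.2%), where 3.62% of all 35116 windows and 4.46% of the 27305 genes with a window hold it. By group, 7 of 16 cytosolic (43.8%), 1 of 14 mitochondrial (7.14%) and 0 of 3 scaffold genes had it. The matches follow with 30 bases on either side where the window allows, 5′ to 3′ on the strand of the gene and with the motif in capitals, since 5 of the 8 genes called higher are among them.
CARS (chr11:3057388-3057455, minus strand): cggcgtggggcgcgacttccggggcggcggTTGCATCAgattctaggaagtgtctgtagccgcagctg
AARS (chr16:70289656-70289723, minus strand): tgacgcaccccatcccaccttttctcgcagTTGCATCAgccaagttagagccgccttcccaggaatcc
GARS (chr7:30594815-30594882, plus strand): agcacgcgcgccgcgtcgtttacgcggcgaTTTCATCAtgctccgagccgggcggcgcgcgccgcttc
MARS (chr12:57488034-57488101, plus strand): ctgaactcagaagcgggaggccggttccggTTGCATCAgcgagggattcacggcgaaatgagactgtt
TARS (chr5:33440937-33441004, plus strand): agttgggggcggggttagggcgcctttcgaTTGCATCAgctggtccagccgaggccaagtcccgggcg
NARS (chr18:57621787-57621852, minus strand): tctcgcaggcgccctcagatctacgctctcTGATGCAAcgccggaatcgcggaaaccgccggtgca
IARS (chr9:92293673-92293740, minus strand): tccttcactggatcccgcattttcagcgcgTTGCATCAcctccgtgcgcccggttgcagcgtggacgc
YARS2 (chr12:32756057-32756124, minus strand): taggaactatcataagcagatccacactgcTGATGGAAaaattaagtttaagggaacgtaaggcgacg

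In 5 of the 7 cytosolic genes the motif began within 14 bases of the start. Its first base was at -2 in CARS, -4 in MARS, -13 in IARS, 2 in TARS and 14 in NARS, counted with the start site as 0, and at -33 in GARS and -187 in AARS. In 6 of the 7 it was read from the strand opposite to the gene, and NARS held it on the reading strand. Of these 7 genes, 5 were called higher and all 7 passed, with a median log2 fold change of 1.05. Of the 9 cytosolic genes with a window and no match, 2 (EPRS and SARS) were called and 7 passed, with a median of 0.64. Beside both groups, 8.16% of all tested genes were called higher and 30.1% passed as higher. A match describes these letters only, and its part in the changes was not tested. IARS, with a match next to its start, was at 0.23, and YARS2, with a match at -197, was at -0.22.

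**Figure D4:**
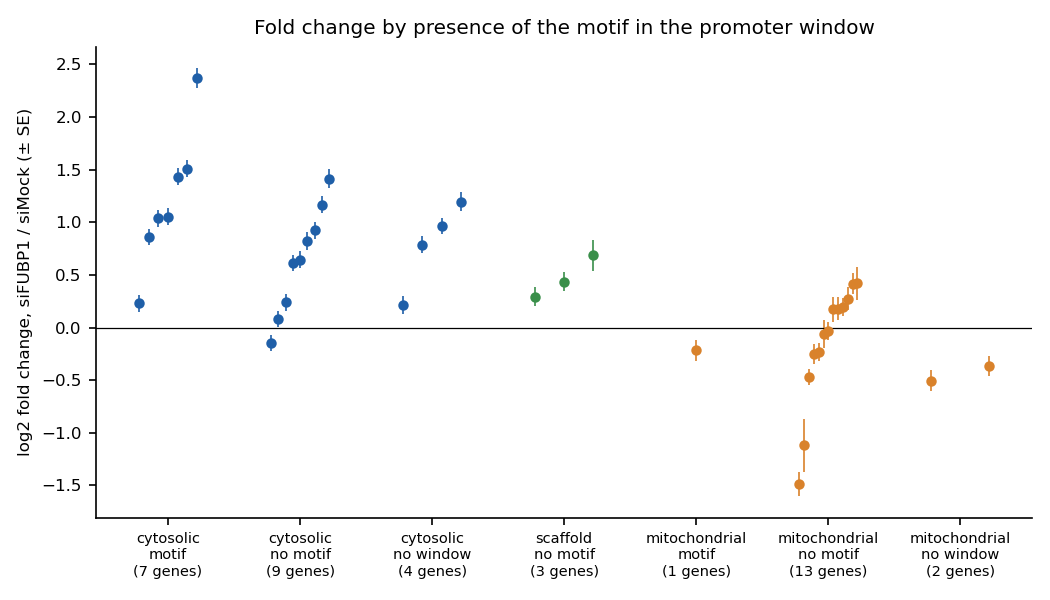
The log2 fold change (siFUBP1 over siMock, y axis, ± SE from edgeR) of each member, grouped on the x axis by compartment and by whether the RefSeq promoter window holds the motif; each point is a gene. The 7 cytosolic genes with the motif run from 0.23 to 2.37 and overlap with the 9 without it, which run from -0.15 to 1.41.

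The position of the members also bears on how far the reads belong to them, since the library kit does not mark strand. Of the 39, 23 share exonic bases with another gene and 6 share more than 10% of theirs. The gene DDIT3, which encodes the stress-response transcription factor CHOP, lies tail to tail with MARS and overlaps it over 355 of its 7028 exonic bases on the opposite strand. DDIT3 rose from 200, 134 and 124 reads in siMock to 1461, 1536 and 1124 in siFUBP1, beside 1719, 1634 and 1488 and then 3443, 3893 and 3273 reads of MARS. The antisense genes CARS-AS1, at 4 to 8 and then 33 to 52 reads, and DARS-AS1, at 14 to 21 and then 51 to 60 reads, were far below CARS and DARS. The part of reads from these genes in the values of the members was not tested. EPRS and IARS2, on chromosome 1 with starts 47444 bases apart, differed in direction, at 1.17 and -0.23.

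An siRNA can also lower other mRNAs through its seed, bases 2 to 8 of the guide strand, when the 3′ UTR holds a match. The guides designed against FUBP1 are shown with the seed in capitals, because the most reduced member holds sites for 2 of them.
RNAi#1: uAAACUGAaugcgaacacctt
RNAi#2: uAAGAGGUuugucagcacctt
RNAi#3: uUUCUUCUaugaguugccgtt

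The 3′ UTR of WARS2 holds 1 match of RNAi#1 and 1 of RNAi#2. That of PARS2, which was higher, holds 2 matches of RNAi#1. The share of all genes with matches of 2 guides was not computed, and the guide used for sequencing is not given. Matches of RNAi#1 were found in 5 members (FARS2, FARSB, PARS2, VARS2 and WARS2) and in 19.9% of 12443 tested genes with a 3′ UTR. Matches of RNAi#2 were found in 2 members (IARS and WARS2) and 12.2% of those genes, and of RNAi#3 in 3 members (AARS2, IARS2 and KARS) and 19.4%. FARSB, PARS2, IARS and KARS, with a match, were higher at the adjusted p, and WARS2, VARS2, AARS2 and IARS2 lower. The part of the seeds in these values was not tested.

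The steps before and after aminoacylation were followed in further gene lists. Of 29 genes that make and export transfer RNA (RNA polymerase III, its factors, and processing and splicing enzymes), 11 were higher and 10 lower at the adjusted p, shares near the 30.1% of all tested genes in each direction, with a median log2 fold change of 0.03. XPOT, the nuclear exporter of transfer RNA, was the only one called higher, from 168, 163 and 170.3 CPM in siMock to 512, 584 and 534 CPM in siFUBP1 (log2 fold change 1.70, SE 0.0798, adjusted p = 1.61e-15), and its groups were apart. GTF3C2, a subunit of transcription factor IIIC, was the only one called lower (-1.08). Of 8 genes of cytosolic elongation, EEF1G was listed at 0 in every sample and was not tested. Of the other 7 none was called, and 1 was higher and 2 lower at the adjusted p. Those lower were EEF1A2 and EEF2K, which encodes a kinase and not an elongation factor.

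Of 17 mitochondrial translation factors and modifiers tested, 7 were higher and 3 lower at the adjusted p, and MTIF2, the mitochondrial initiation factor, was the only one called, as higher (1.02, SE 0.0789, adjusted p = 2.74e-11). Their median was 0.13, beside -0.14 for the mitochondrial synthetases. Among 10 accessory and editing genes none was called, and 4 were higher and 2 lower at the adjusted p. Beside both lists, 30.1% of all tested genes were higher and 30.1% lower. TARSL2, which encodes a further threonyl-tRNA synthetase of the cytosol and was singled out after its values were seen, was lower (log2 fold change -0.84, SE 0.137, adjusted p = 8.22e-06), with 15.0, 16.1 and 16.7 CPM in siMock and 9.24, 7.27 and 10.2 CPM in siFUBP1, whereas TARS rose.

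Most genes of the amino acid stress response rose as well. Of 15 such genes, 9 were called higher and 0 lower, 13 were higher and 1 lower at the adjusted p, and the median log2 fold change was 1.19. Over all tested genes, 8.16% were called higher and 9.13% lower, and 30.1% were higher and 30.1% lower at the adjusted p. ATF4 had 188, 161 and 172 CPM in siMock and 384, 416 and 388 CPM in siFUBP1 (log2 fold change 1.19, SE 0.0798, adjusted p = 1.65e-12). ASNS, asparagine synthetase, was counted at 10 to 15 reads in siMock and at 241 to 295 reads in siFUBP1 (4.31), and CHAC1 (3.13), DDIT3 (3.09) and SESN2 (2.75) were the next largest. This list was written with earlier results of these samples known and is not independent evidence of its direction.

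WARS is also known as a gene induced by interferon, and the interferon-stimulated genes were therefore set beside it. Of 8 such genes, 0 were called higher and 5 lower, beside 8.16% higher and 9.13% lower over all tested genes. Their median log2 fold change was -1.23, and ISG15 (-1.79), IFIT3 (-1.74), IFIT1 (-1.29) and OAS1 (-1.25) fell most. Like the others, this list was chosen with earlier results of these data known. WARS was at 116 to 122 CPM in siMock and 186 to 244 CPM in siFUBP1. The part of interferon signalling in the change of WARS was not tested.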

How the data were processed

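RNA-seq of 3 siMock and 3 siFUBP1 samples, grouped by their titles, was used. The read count per gene was deposited by the authors without normalization. The authors also deposited FPKM, their counts per gene length and scaled library size. The signal columns deposited by the authors, the means of their comparison, were not used, nor were their deposited log2 fold changes and deposited p-values. The submitters' processing notes name HISAT2 2.0.5, StringTie 1.3.3b, featureCounts 1.5.0-p3 and DESeq2 1.16.1. Gene models match GENCODE release 29 (GRCh38), and use of the strand in counting is not given in the sources used here.

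All 16116 genes that passed the expression filter of edgeR 4.0.16 (R 4.3.3) entered its robust quasi-likelihood test after TMM scaling, and p-values were adjusted after Benjamini and Hochberg. A gene passed at an adjusted p below 0.05 and was called if the absolute log2 fold change was also above 1. Total counts lay between 16309900 and 17484313, and samples differed by more than sampling noise (chi-square per gene of at least 5.87). Levels between genes were compared as CPM per kilobase of exon, and ratios by exact permutation tests over samples. The length was that of all annotated exons of a gene, which need not be that of the transcripts present. Ranks and the order of levels between genes depend on it. The edgeR and DESeq2 tests and limma on log2(FPKM + 1) were checked on simulated counts. The permutation tests were not. All members were named. Sample values were given for called members, their mitochondrial partners, GARS, KARS, the scaffold proteins and, chosen after they were seen, for RARS2, TARSL2 and RUNX2. Of each other list the called genes with the largest changes (at most 4), ATF4, XPOT and ASNS were named. Sample values were given for ATF4, XPOT and DDIT3, which overlaps MARS. Genes of the marker lists, EIF2AK1, which overlaps AIMP2, and EEF1G, EEF1A2 and EEF2K were named as well. Members and lists were chosen with earlier results of these data known. MTRFR, on the list of mitochondrial factors, was not analysed here. Same-numbered samples did not deviate together (r of -0.0047, 0.017 and 0.12), so the numbers were not taken as pairs. Alternatives were other scalings, no filter, DESeq2 1.42.0, limma 3.58.1 on log2(FPKM + 1) and log2(FPKM + 0.1), a replicate block, removal of a trend on GC content and length (span 0.3), and leaving out each sample.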

Additional observations from a re-analysis of the deposited data

How the results depend on the processing

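No member that passed changed direction under the alternatives run. Of those that did not pass, FARSA (-0.15) was at 0.0084 with the GC and length trend removed, and HARS2 (-0.03) and MARS2 (-0.06) were at 0.07 and 0.03 with library size alone. In all, 669 of the alternative values kept their side of the adjusted p threshold or stayed within their spread, while 44 fell short of it, 10 passed it and 14 moved. For single genes this count ignores the fold threshold. Calls lost or gained at that threshold, for DARS, TARS, MARS, SARS2, FARSB and LARS, are therefore among the 669. The cytosolic count of called genes (8) lay between 6 and 10, and from 7 to 9 with single samples left out; that of genes passed as higher (18) between 17 and 19. With the replicate block the counts of called genes were 8 cytosolic higher and 2 mitochondrial lower, as without it, and the block changed no call of a member. The mitochondrial count called lower (2) was 1 with limma on log2(FPKM + 1), limma on log2(FPKM + 0.1), removal of the GC and length trend, and the replicate block with that removal, and 1 to 2 with single samples left out. The mitochondrial count passed as higher (4) was 1 in DESeq2 and 2 with limma on either FPKM scale or with the GC and length trend removed, and 1 to 4 with single samples left out. With library size alone as the scaling, which moved the median of all genes by 0.0986, the cytosolic median was 0.99, and FARSB (1.02) and LARS (1.07) were called. Over all genes, limma on log2(FPKM + 1) called 462 higher and 588 lower, against 1315 and 1472. For these changes the cause was not tested. SARS2 had the fewest reads of the members, at 28 to 82 per sample. It shares 46.2% of its exonic bases with AC011455.2 on the same strand. The part of this overlap in its count, its level per kilobase and its ratio to SARS was not tested.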
